A study of Mus musculus with 6 samples.

Results

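The snoRNA host long noncoding RNAs examined here were 10 genes taken by symbol from the deposited count tables: Gas5, Snhg1, Snhg3, Snhg4, Snhg5, Snhg6, Snhg8, Snhg12, Snhg15 and Snhg17. They occupied 11 of 55401 gene entries, because the symbol Snhg4 stood on 2 identifiers. All 6 libraries held polyadenylated RNA of germinal centre B cells sorted by flow cytometry from the spleens of wild-type C57BL/6 mice. Every mouse had been given sheep red blood cells (SRBC) into the peritoneal cavity, was challenged with them again on day 5 and was killed on day 12. The groups were the sorted subsets named DN and DP, with 3 libraries each, and the meaning of these names is not given in the labels. Strain, genotype and immunisation were shared by both groups. According to the design text both subsets came from each of 3 mice, but the labels do not link libraries to mice. The p-values therefore reflect variation among these libraries, possibly only technical variation.

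A snoRNA host gene is transcribed as a long RNA whose introns carry small nucleolar RNAs (snoRNAs). After splicing, the snoRNAs are trimmed out of the introns and bound by core proteins: box C/D snoRNAs guide ribose methylation of ribosomal RNA, and box H/ACA snoRNAs guide pseudouridylation. The spliced host RNA has little coding capacity. Several host RNAs, Gas5 the best known, start with a terminal oligopyrimidine (TOP) tract like that of ribosomal protein mRNAs, are loaded on ribosomes and are removed by nonsense-mediated decay (NMD). The mature snoRNAs have no poly(A) tail, so polyadenylated RNA libraries report mainly the host exons. Host levels are therefore no measure of snoRNA levels.

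In the GENCODE M21 annotation of mm10 the 10 hosts enclosed 33 snoRNA genes. Gas5 (chr1:161034422-161038539, plus strand) enclosed 9, Snhg1 (chr19:8723475-8726443, plus strand) 8, Snhg5 (chr9:88521050-88522929, minus strand) 2 and Snhg6 (chr1:9941959-9944118, minus strand) 1. Those 4 hosts carry box C/D snoRNAs where a class could be assigned. The others, Snhg3, Snhg4, Snhg8, Snhg12, Snhg15 and Snhg17, carry mainly box H/ACA snoRNAs. The sequences that follow show what the 2 kinds of cargo look like, read from the annotated transcripts. Capitals mark the C box TGATGA and the D box CTGA in box C/D snoRNAs and the ACA trinucleotide near the 3′ end in box H/ACA snoRNAs.
Snord47 of Gas5, chr1:161038082-161038158, plus strand: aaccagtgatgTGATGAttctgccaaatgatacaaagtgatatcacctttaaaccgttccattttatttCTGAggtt
Snord80 of Gas5, chr1:161037601-161037681, plus strand: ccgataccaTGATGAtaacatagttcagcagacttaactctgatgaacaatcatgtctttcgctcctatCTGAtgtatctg
Snord50a of Snhg5, chr9:88521529-88521600, minus strand: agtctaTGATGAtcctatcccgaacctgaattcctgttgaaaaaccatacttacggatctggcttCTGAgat
Snord50b of Snhg5, chr9:88521797-88521868, minus strand: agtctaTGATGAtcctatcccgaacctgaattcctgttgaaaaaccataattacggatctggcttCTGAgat
Snord87 of Snhg6, chr1:9942463-9942549, minus strand: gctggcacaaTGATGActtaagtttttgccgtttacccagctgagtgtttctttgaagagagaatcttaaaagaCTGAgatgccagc
Snora24 of Snhg8, chr3:123507937-123508066, minus strand: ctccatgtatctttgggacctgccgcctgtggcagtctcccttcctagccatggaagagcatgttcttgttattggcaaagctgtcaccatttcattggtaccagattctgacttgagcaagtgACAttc
Snora9 of Snhg15, chr11:6528033-6528165, minus strand: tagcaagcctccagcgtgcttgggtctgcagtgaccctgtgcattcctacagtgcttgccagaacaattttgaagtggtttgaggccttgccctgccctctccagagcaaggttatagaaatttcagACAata
The 2 snoRNAs of Snhg5 are near copies: over 72 bases they differ at 1 position, C50A, counted from the 5′ end with the base of Snord50a first.

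**Figure D1:**
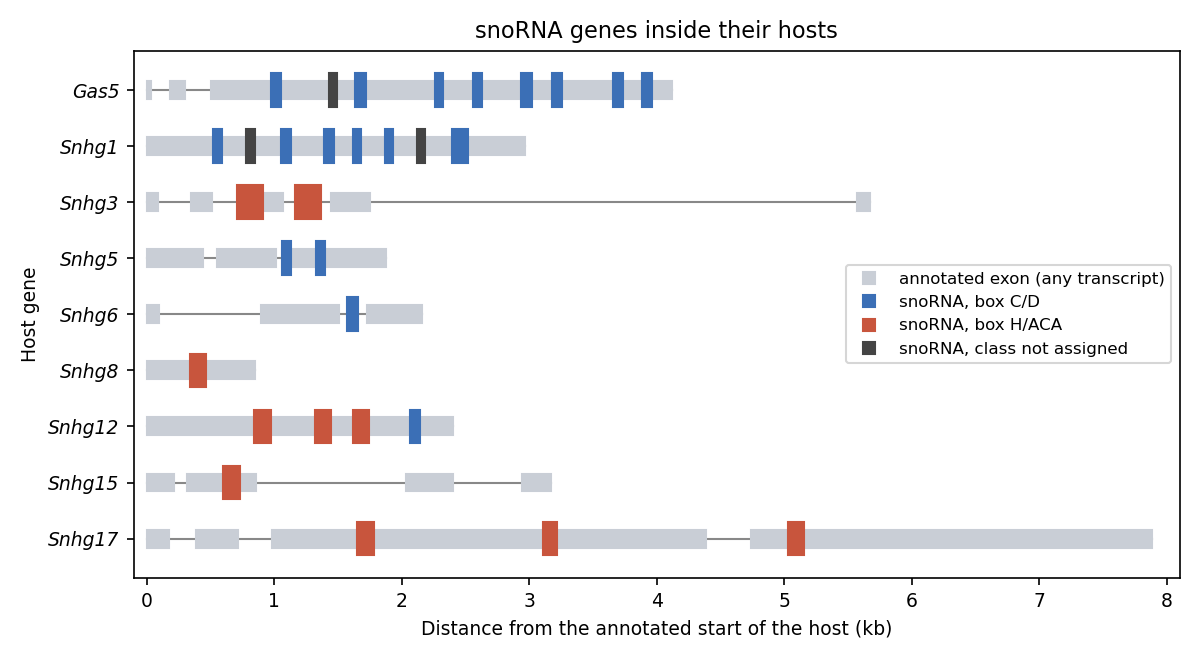
Map of 9 of the 10 hosts drawn from their annotated starts, with distance in kb on the x axis, exons of any annotated transcript in grey and snoRNA genes in colour by class. Gas5 and Snhg1 enclose 9 and 8 snoRNA genes, and most coloured boxes lie on grey because annotated transcripts that keep introns cover them.

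Of the 10 symbols, 9 passed the filter on low counts and were tested, and all 9 rose in DP, with none lower. This has to be read against a comparison in which most genes moved: of 11296 genes tested, 75.9% were called at an adjusted p under 0.05, 38.3% higher and 37.6% lower in DP. Of the 9 tested hosts, 7 rose at least 2-fold, against 12.3% of all tested genes. In all 9, every DP library stood above every DN library, which held for 39.0% of tested genes. The median log2 fold change (DP against DN throughout) was 1.36 over the tested hosts, with a range of 0.39 to 2.61, and 0.0061 over all tested genes. Snhg4 reached the count cutoff in 1 of 3 DN libraries and in all DP libraries, so it entered the test through its DP values; the other 8 reached it in all 6 libraries. Unless another test is named, adjusted p-values and calls come from edgeR's quasi-likelihood test with Benjamini-Hochberg adjustment over all tested genes.

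Gene counts came to 8904415 to 11897360 per DN library and 17509384 to 20538024 per DP library. Levels are CPM, gene counts scaled to a common library size after TMM factors had corrected the sizes for composition, and means are given ± SD over n = 3 libraries. Scaling by library totals alone moved the median gene by -0.20 on the log2 scale, and host changes by about as much. The split of all calls went from 4328 higher and 4243 lower to 3290 higher and 5355 lower, and that of the hosts from 9 higher to 8 higher, with none lower. All 12 germinal centre B cell markers were detected and tested, and 11 were lower and 1 higher in DP. Their summed level ranged from 10380 to 11120 CPM across DN libraries and from 6456 to 7082 CPM across DP libraries. Most of these sums was the proliferation gene Mki67, with means of 7185 CPM in DN and 4936 CPM in DP. Summed erythroid markers lay between 63.4 and 73.6 CPM in the DN libraries and between 16.1 and 18.4 CPM in the DP libraries (7 of 7 tested lower), and macrophage markers at 30.2 to 34.3 and 12.5 to 15.5 CPM (8 of 8 tested lower). Plasma cell markers were mixed, with 3 of 5 higher and 1 lower in DP: Sdc1 rose from 0.468 to 1.51 CPM, Prdm1 by 1.47 on the log2 scale and Xbp1 from 113 to 140 CPM, and Jchain fell from 277 to 154 CPM, for sums of 390 to 401 CPM in DN and 297 to 310 CPM in DP. The DN mean of Sdc1 lay below the count cutoff, so Sdc1 entered the test through its DP values. Of the T cell markers 2 were tested, 1 higher and 1 lower, and of 5 tested naive B cell markers 1 was higher and 3 lower. Reads outside any annotated feature made up 6.88% ± 0.355 of counts in DN and 4.13% ± 0.104 in DP, and mitochondrial genes 1.23% ± 0.0257 and 0.941% ± 0.0228. The part of these differences in the host results was not tested. In bulk RNA, more cells with a host RNA and more host RNA per cell cannot be told apart.

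Gas5, named for its accumulation in growth-arrested cells and known to bind the glucocorticoid receptor, had the highest CPM of the hosts in DP. Its level was 78.7, 67.4 and 76.3 CPM in the 3 DN libraries and 177, 160 and 172 CPM in the 3 DP libraries. The groups were far apart beside their own spread, with coefficients of variation of 7.99% in DN and 5.10% in DP. The mean rose from 74.1 ± 5.92 to 169.7 ± 8.66 CPM, a log2 fold change of 1.19 ± 0.05 (SE, 95% interval 1.09 to 1.29, edgeR adjusted p = 5.06e-29). The spliced Gas5 RNA of 665 bases has a longest ATG-initiated reading frame of 40 codons in the annotation.

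Snhg5, host of the Snord50 pair shown above, had the highest CPM in DN. It stood at 111, 98.9 and 103 CPM in DN and at 153, 157 and 156 CPM in DP. All DP libraries were above all DN libraries, but the step was among the smallest of the hosts. Its mean rose from 104.5 ± 6.37 to 155.1 ± 2.31 CPM, a log2 fold change of 0.57 ± 0.04 (adjusted p = 1.08e-17).

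These 2 hosts took unequal steps. Within a library, the ratio of Gas5 to Snhg5 counts needs no scaling between libraries, and it was 0.706, 0.682 and 0.740 in DN against 1.16, 1.02 and 1.10 in DP. Every DN library held more Snhg5 than Gas5 counts and every DP library held more Gas5 than Snhg5 counts. The exact two-sided permutation test of 3 against 3 gave p = 0.1, the smallest it can give; this pair was chosen after its values were seen. Which of the 2 is the more abundant RNA depends on the length used. Per kb of the longest spliced transcript, Gas5 was above Snhg5 in both groups, at 111.5 and 104.1 CPM per kb in DN and 255.2 and 154.4 in DP. Per kb of all annotated exons together, Gas5 was below Snhg5 in both, at 19.7 and 60.4 CPM per kb in DN and 45.1 and 89.6 in DP.

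Snhg1 encloses 8 snoRNA genes, among them Snord22. Its level was 21.5, 23.8 and 24.2 CPM in DN and 46.1, 48.9 and 45.4 CPM in DP, with no overlap between the groups. The mean rose from 23.2 ± 1.45 to 46.8 ± 1.87 CPM (log2 fold change 1.02 ± 0.07, adjusted p = 3.55e-20). Snhg6, which holds Snord87 alone, was much scarcer at 2.51, 2.20 and 1.23 CPM in DN and 5.39, 4.76 and 5.55 CPM in DP. Its DN libraries spread widely, with a coefficient of variation of 33.8%, yet none reached the lowest DP library. Its log2 fold change was 1.36 ± 0.21 (adjusted p = 4.70e-08).

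**Figure D2:**
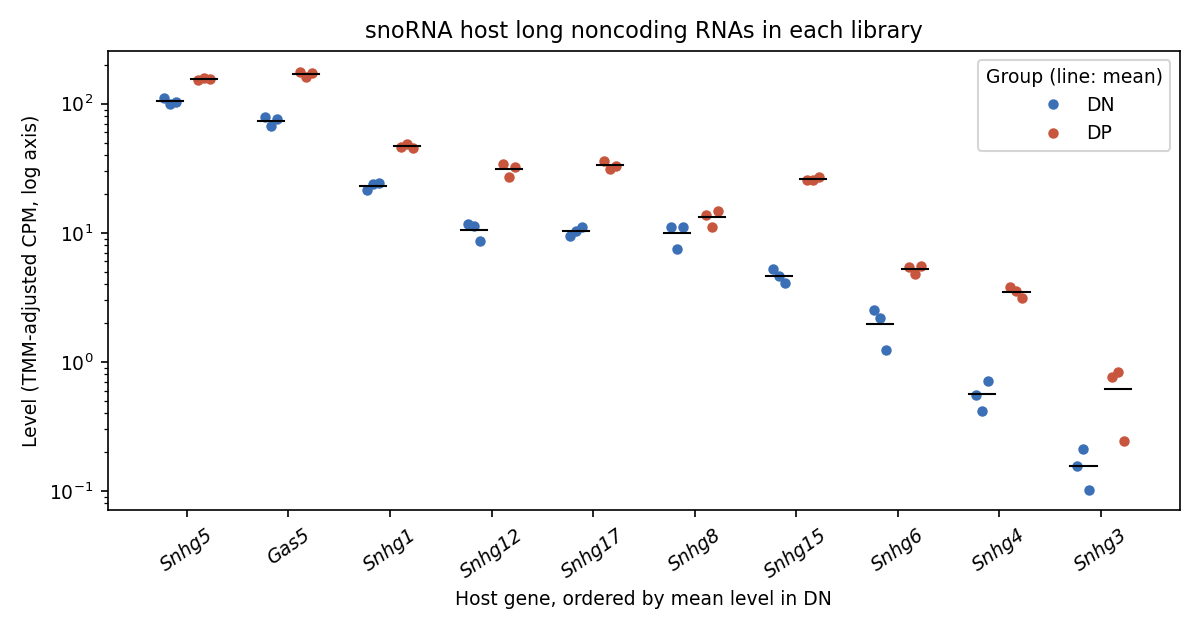
Level of each host in each library (TMM-adjusted CPM, log y axis), DN in blue and DP in red, with a line at each group mean of n = 3. DP points lie above DN points for every host. The gap is widest for Snhg4 and Snhg15, and for Snhg8 the lowest DP point meets the highest DN points.

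Among the hosts of box H/ACA snoRNAs, Snhg15, which carries Snora9, showed a wide and even separation. It was at 5.26, 4.61 and 4.10 CPM in DN and at 25.5, 25.8 and 27.1 CPM in DP. The lowest DP library held several times the highest DN library. Its mean rose from 4.66 ± 0.581 to 26.1 ± 0.860 CPM, a 5.53-fold rise (log2 fold change 2.47 ± 0.11, adjusted p = 3.19e-28).

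Snhg17 encloses 3 box H/ACA snoRNA genes that the annotation gives only model names. Its level was 9.50, 10.4 and 11.2 CPM in DN and 36.0, 31.3 and 32.8 CPM in DP, and it rose by a log2 fold change of 1.69 ± 0.09 (adjusted p = 9.56e-25). Snhg12, host of Snora16a, Snora44, Snora61 and the box C/D snoRNA Snord99, had a like mean level in DN. It was at 11.6, 11.3 and 8.61 CPM in DN and 33.9, 27.1 and 32.2 CPM in DP, a log2 fold change of 1.55 ± 0.10 (adjusted p = 9.48e-20). In both genes the groups were well apart.

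Snhg8, the host of Snora24 shown above, was the least changed. Its level was 11.07, 7.55 and 11.07 CPM in DN and 13.7, 11.07 and 14.9 CPM in DP. DP replicate 2 lay at the level of DN replicates 1 and 3, above them by less than the digits shown. The mean went from 9.90 ± 2.03 to 13.2 ± 1.95 CPM, and the gene passed the test with a log2 fold change of 0.39 ± 0.12 (adjusted p = 0.00401). That call rested on DN replicate 2 and on the scaling. Without that library the log2 fold change was 0.25 (adjusted p = 0.0618), and with library totals alone it was 0.20 (adjusted p = 0.14).

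Snhg4 and Snhg3 were at the edge of detection in DN. The Snhg4 entry annotated as a noncoding transcript held 7, 4 and 7 counts in DN and 64, 68 and 51 in DP. Every DP library was above every DN library, and the ratio of pooled counts, corrected for library size, was 6.19, with an exact 95% counting interval of 3.81 to 10.7 that covers counting error only. Its fitted log2 fold change was 2.61 ± 0.31, but it entered the test through its DP values, so no p-value is given. The second Snhg4 entry, a protein-coding model in M21 that reads through into Matr3, held 0, 0 and 0 counts in DN and 0, 1 and 3 in DP and was not tested.

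Snhg3 carries the near-identical Snora73a and Snora73b (96.6% identity over 205 bases). It held 2, 2 and 1 counts in DN and 13, 16 and 4 in DP and fell below the filter, with a ratio of pooled counts, corrected for library size, of 4.02 (exact 95% counting interval 1.56 to 13.2). With no filter beyond 1 count, edgeR gave Snhg3 a log2 fold change of 2.01 and called it. DESeq2 gave 2.00 and did not call it. Snhg3 reached the count cutoff in 0 DN and 2 DP libraries, so no p-value is given. Snhg3 shares 5592 bases with Rcc1, the exchange factor of the GTPase Ran, on the same strand. How reads falling in both genes were counted is not given in the sources used here, so a low Snhg3 count need not mean a low level. Rcc1 itself rose from 42.9 ± 1.03 to 123 ± 0.748 CPM (1.52 ± 0.05).

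**Figure D3:**
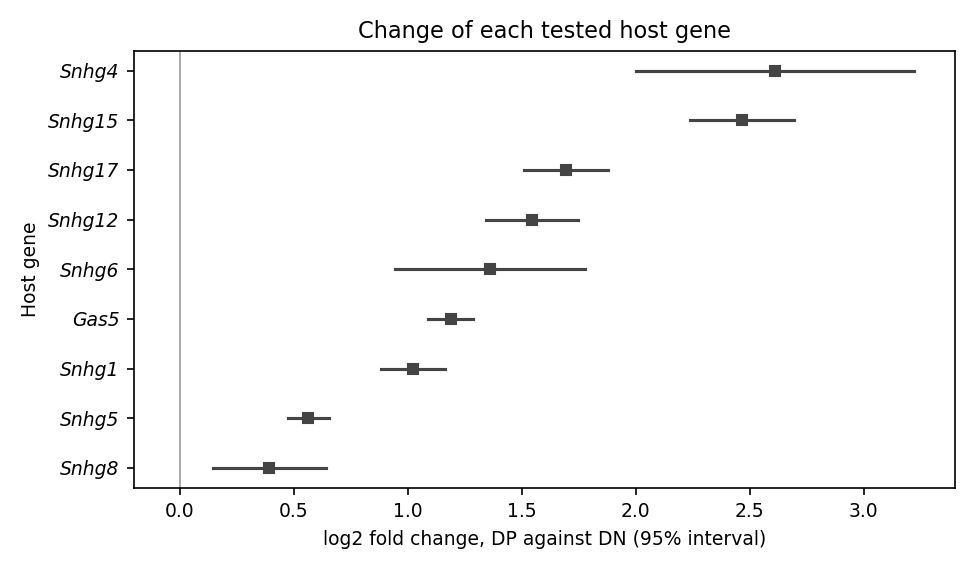
log2 fold change of DP against DN for the 9 tested hosts (squares) with 95% intervals from the edgeR fit (bars), ordered by size. All intervals lie above 0, from Snhg8 at 0.39 to Snhg4 at 2.61, and the widest belong to the scarce Snhg4 and Snhg6.

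The order of the changes was Snhg4, Snhg15, Snhg17, Snhg12, Snhg6, Gas5, Snhg1, Snhg5 and Snhg8. Neighbours in that order differed by more than 2 combined standard errors at 2 places only. Snhg15 exceeded Snhg17 by 0.77 (combined SE 0.15), and Snhg1 exceeded Snhg5 by 0.46 (combined SE 0.083). The 4 hosts of mainly box C/D snoRNAs had a median log2 fold change of 1.11 with a range of 0.57 to 1.36. The 5 tested hosts of mainly box H/ACA snoRNAs had a median of 1.69 and a range of 0.39 to 2.61, so both the largest and the smallest changes were among them. The largest was that of Snhg4, which entered the test through its DP values.

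Together the hosts accounted for 0.0257% ± 0.00136 of all gene counts of a DN library and for 0.0453% ± 0.000859 of those of a DP library, a ratio of 1.76. All DP libraries exceeded all DN libraries, and the exact two-sided permutation test of 3 against 3 gave p = 0.1, the smallest it can give. The makeup of this sum shifted toward the hosts that rose most. Snhg5 went from 43.6% to 32.1% of host counts, Gas5 went from 30.9% to 34.97%, and Snhg15 from 1.96% to 5.39%. The share of Snhg1 was 9.54% in DN and 9.70% in DP.

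Counts of the enclosed snoRNA genes themselves were almost absent. Of the 33, 30 had no count in any of the 6 libraries, and all of these 30 lie wholly inside host exons annotated in M21, because M21 lists host transcripts that keep introns. The counts were made with another release. The 3 with any count were those not wholly inside host exons: Snora73b with 6 counts, Snord87 with 2 and Snora73a with 1, all in DP libraries. With 9 counts in all, no comparison of snoRNA genes was made. A read that fits both a snoRNA and a host exon has no single gene, and ambiguous reads made up 2.00% ± 0.0271 of counts in DN and 2.04% ± 0.0261 in DP.

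Genes that overlap a host or start close to one did not all move with it. Slc3a2, the heavy chain of amino acid transporters, starts 106 bases from Snhg1 on the opposite strand and rose from 49.1 ± 0.935 to 153 ± 3.25 CPM (1.64 ± 0.05, adjusted p = 5.20e-38). Zbtb37, a zinc finger gene, starts 427 bases from Gas5 on the opposite strand and overlaps it by 428 bases. It stood at 24.5, 24.8 and 22.6 CPM in DN and 22.4, 19.1 and 18.8 CPM in DP, just without overlap, and fell by 0.26 ± 0.08 on the log2 scale (adjusted p = 0.00507) while Gas5 rose. Matr3, an RNA-binding nuclear matrix gene that shares sequence with the scarce Snhg4 entry, was at 118 ± 8.93 and 127 ± 7.94 CPM (0.10 ± 0.05, adjusted p = 0.0617) and was not called. Mcmdc2, which overlaps Snhg6, held at most 3 counts in any library.

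Promoter windows from RefSeq (GRCm38.p6), running from 250 bases before to 50 bases after an annotated start, were available for 8 of the 10 hosts, with 10 windows in all. A TOP-like tract, here a C followed by at least 4 further pyrimidines beginning within 10 bases of the start, was found in 5 of these 10 windows, belonging to Gas5, Snhg3, Snhg5, Snhg8 and Snhg12. The same search matched 30.7% of all 32851 windows and 56.9% of 72 windows of ribosomal protein genes. The E-box CACGTG, the site bound by Myc with its partner Max and by related factors, reads the same on both strands. It was found in 1 of the 10 windows, that of Snhg15, against 7.15% of all windows and 11.1% of the ribosomal protein windows. Myc rose from 5.31 ± 0.323 to 62.0 ± 0.627 CPM in DP (3.55 ± 0.09). The stretches from 80 bases before to 40 bases from the start are printed for the 3 hosts of highest mean CPM and for Snhg12, Snhg15 and Snhg17, with a TOP-like tract or E-box in capitals. The first Gas5 window, Snhg1 and Snhg17 held neither.
Gas5, first window, chr1:161034521-161034640, plus strand: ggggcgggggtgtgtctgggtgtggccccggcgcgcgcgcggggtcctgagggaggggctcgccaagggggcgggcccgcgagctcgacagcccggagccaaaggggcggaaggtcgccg
Gas5, second window, chr1:161035086-161035205, plus strand: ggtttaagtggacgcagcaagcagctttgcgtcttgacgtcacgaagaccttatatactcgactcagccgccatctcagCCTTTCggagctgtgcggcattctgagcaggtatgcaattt
Snhg1, chr19:8723407-8723526, plus strand: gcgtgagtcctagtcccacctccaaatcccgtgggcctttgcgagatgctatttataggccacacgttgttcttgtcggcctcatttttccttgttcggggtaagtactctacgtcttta
Snhg5, chr9:88522858-88522977, minus strand: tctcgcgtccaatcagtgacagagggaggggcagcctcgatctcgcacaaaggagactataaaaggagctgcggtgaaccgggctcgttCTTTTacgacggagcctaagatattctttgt
Snhg12, chr4:132308598-132308717, plus strand: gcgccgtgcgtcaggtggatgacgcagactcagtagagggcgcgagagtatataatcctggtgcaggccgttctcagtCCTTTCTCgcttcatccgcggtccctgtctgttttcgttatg
Snhg15, chr11:6528721-6528840, minus strand: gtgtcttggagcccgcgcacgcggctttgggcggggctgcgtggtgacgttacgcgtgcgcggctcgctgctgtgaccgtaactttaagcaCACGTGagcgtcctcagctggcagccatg
Snhg17, first of its 2 windows, chr2:158361483-158361602, minus strand: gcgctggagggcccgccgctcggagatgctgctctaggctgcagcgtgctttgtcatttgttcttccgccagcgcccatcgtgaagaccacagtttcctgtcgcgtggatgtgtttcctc
The matches are letters in a window and do not show a bound or used site. Among tested hosts, those with a tract ranged from Snhg8, the least changed, to Snhg12 at 1.55; Snhg3, which also has one, was below the filter.

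The genes for proteins that bind and assemble snoRNAs were also mostly higher in DP. All 4 box C/D core genes were higher in DP (median log2 fold change 1.76): Fbl, the methyltransferase fibrillarin, rose from 55.8 to 272 CPM (2.28 ± 0.05), Nop56 by 1.81 ± 0.04, Nop58 by 1.71 ± 0.04 and Snu13 by 1.13 ± 0.06. All 4 box H/ACA core genes were higher too (median 1.88): Gar1 rose by 2.45 ± 0.06, Nhp2 by 2.14 ± 0.05, the pseudouridine synthase gene Dkc1 by 1.62 ± 0.04 and Nop10 by 1.28 ± 0.14. Of 13 genes for snoRNP assembly, 11 rose and 0 fell (median 1.30). Nolc1, a nucleolar chaperone of snoRNPs, rose by 2.62 ± 0.04, Znhit6 by 2.00 ± 0.05, and the ATPase genes Ruvbl1 by 1.495 ± 0.04 and Ruvbl2 by 1.33 ± 0.04. Rpap3 and Pih1d1, which work with those ATPases, were not called, at 0.03 ± 0.04 and -0.02 ± 0.09. The counts stand beside 38.3% of all tested genes higher in DP, and with library totals alone the 2 uncalled genes counted as lower.

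**Figure D4:**
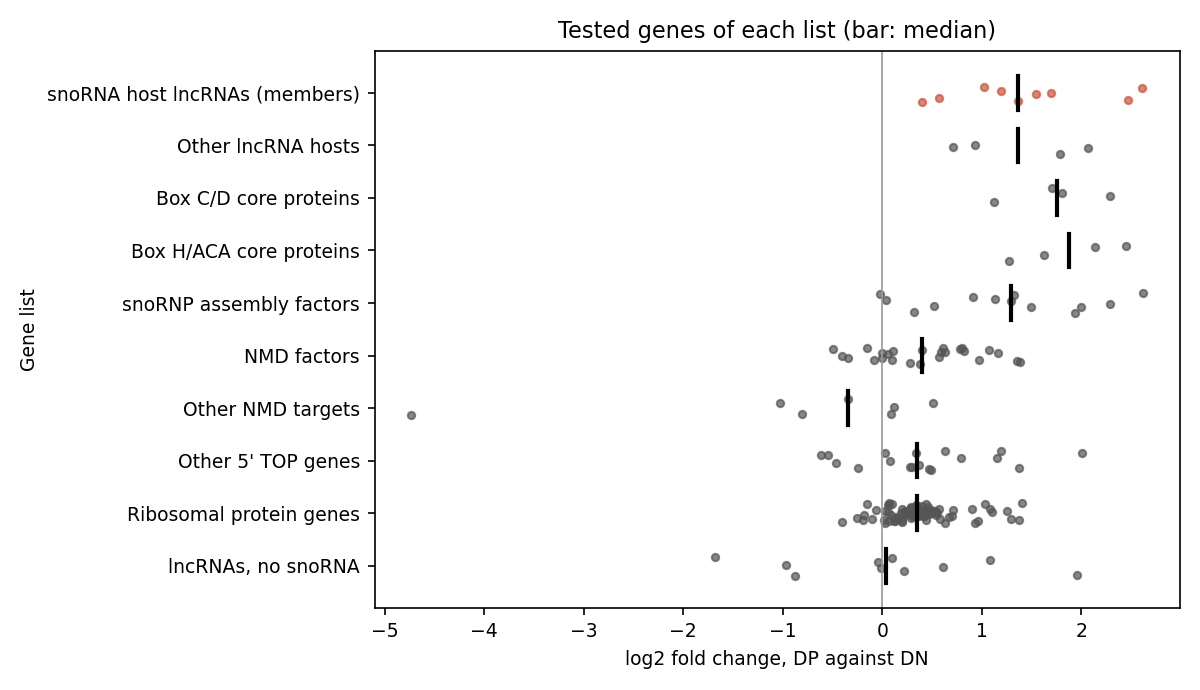
log2 fold change of DP against DN for each tested gene of the hosts and of 9 comparison lists (points), with the list median as a black bar. The hosts, the other long noncoding snoRNA hosts and the snoRNP core lists lie wholly above 0. Assembly factors, NMD factors, NMD targets, TOP genes, ribosomal protein genes and long noncoding RNAs without snoRNAs lie on both sides.

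Other long noncoding snoRNA hosts, listed by symbol, gave 4 tested genes of 10 in the tables, and all 4 rose (median 1.36). Snhg16 rose by 2.07 ± 0.20, Epb41l4aos by 1.79 ± 0.15, Zfas1 by 0.93 ± 0.10 and Snhg20 by 0.72 ± 0.20. Those not tested were scarce in both groups, and one of them, Snhg18, named after its values were seen, averaged 0.685 CPM in DN and 0.0407 CPM in DP. Taking hosts by annotation instead, protein-coding genes with a snoRNA in an intron numbered 173 tested, of which 102 were higher and 49 lower (median 0.23; 76 and 61 with library totals alone). Some scarce genes among them passed the filter through 1 group alone and were not counted apart. Long noncoding hosts by the same rule, members left out, numbered 7 tested, 4 higher and 2 lower (median 1.79). That class rests on the annotated gene type alone: 1 of the 4, Cct6a (1.92 ± 0.04), is typed as a processed transcript but is the gene of a chaperonin subunit. Another of the 4 higher, 2700038G22Rik, averaged 0.347 CPM in DN and 1.91 CPM in DP. Of the 2 lower, A430035B10Rik averaged 1.68 CPM in DN and 0.356 CPM in DP. Each passed the filter through the group where it was high, so neither call counts as support. Both are also in the wider count that follows. When snoRNAs that touch a host exon also counted, a choice made after seeing the data, these became 13 tested, 9 higher and 3 lower (median 0.96). Gm29170, 1 of the 9 higher and the median gene, averaged 0.545 CPM in DN and 1.10 CPM in DP. It too passed the filter through DP, so its call does not count as support.

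The tested long noncoding RNAs that host no snoRNA were more often lower than higher in DP. Of 9842 in the annotation, 433 were tested, with 42 (9.70%) higher, 258 lower and a median of -0.76. Genes that passed the filter through 1 group alone are in these counts. Their number was not determined, so the split does not count as support for a difference from the hosts. In a list of 12 well-studied long noncoding RNAs without snoRNAs, 10 were tested, with 3 higher, 3 lower and a median of 0.04. With library totals alone that median turned to -0.15. Mir155hg, 1 of the 3 higher, averaged 0.495 CPM in DN and 1.96 CPM in DP. It passed the filter through DP, so its call does not count as support. Norad, listed as 2900097C17Rik and known to bind Pumilio proteins, rose from 143 to 302 CPM (1.08 ± 0.04). The nuclear RNAs Malat1, from 657 to 357 CPM, and Neat1, from 22.9 to 11.8 CPM, fell by 0.88 ± 0.05 and 0.97 ± 0.10, and Dleu2, the host of Mir15a and Mir16-1, fell by 1.68 ± 0.09.

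Because host RNAs can carry TOP tracts and undergo nonsense-mediated decay, the genes of those pathways are set beside them. Of 79 tested cytosolic ribosomal protein genes, 63 were higher and 6 lower, with a median of 0.34 (47 and 18 with library totals alone). These were taken by a pattern in the symbol, so like-named genes such as Rpl7l1 (1.08 ± 0.04) are among them. Among 18 other TOP genes, 13 were higher and 4 lower (median 0.35; 11 and 6 with library totals alone). The nucleolar chaperone gene Npm1 rose by 2.00 ± 0.04, Eef1d by 1.37 ± 0.04, Hnrnpa1 by 1.196 ± 0.03 and Pabpc1 by 0.79 ± 0.03. Of the 10 regulators of TOP mRNAs, 8 were higher and 1 lower (median 0.65; 7 and 2 with library totals alone). Larp1, which binds the TOP tract, rose by 1.70 ± 0.04, Cnbp by 1.08 ± 0.04, Larp4 by 0.87 ± 0.04 and Rptor, a subunit of the mTORC1 kinase, by 0.88 ± 0.08. The tested hosts, at 0.39 to 2.61, overlapped the range of the ribosomal protein genes, -0.41 to 1.40.

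Of 25 decay factors, 17 were higher and 3 lower (median 0.39; 14 and 9 with library totals alone). The release factor genes Gspt1 and Etf1 rose by 1.39 ± 0.04 and 1.16 ± 0.04, and the exon junction genes Rbm8a and Rnps1 by 1.08 ± 0.04 and 0.97 ± 0.04. The central helicase gene Upf1 rose by 0.59 ± 0.04, whereas Smg1, the kinase acting on it, fell by 0.50 ± 0.04. Other mRNAs known as decay targets lay on both sides of 0. Of 7 tested, 2 were higher and 4 lower (median -0.35; 1 and 4 with library totals alone). Gadd45b fell by 0.81 ± 0.06 and Gadd45a by 1.03 ± 0.17, while Tbl2 rose by 0.51 ± 0.08. Atf3, also counted among the lower genes, averaged 2.25 CPM in DN and held 1, 2 and 1 counts in DP, so it entered the test through DN and no fold is given for it.

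For the 3 hosts of highest mean CPM, the genes most like them were sought among 7934 genes of at least 5 CPM, by the root mean square difference of centred log2 CPM over the 6 libraries. Nearest to Snhg5 were Mepce (0.0162), Pinx1 (0.0204) and Dcun1d5 (0.0206). Nearest to Gas5 were Parl (0.0308), Nus1 (0.0328) and Nek4 (0.0431), and nearest to Snhg1 were Gcn1 (0.0226), Eno1 (0.0264) and Ran (0.0283). With 2 groups and little spread inside them, such a distance mostly compares the size of the step from DN to DP.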

How the data were processed

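The deposited values are raw read counts per gene, 1 table per library, not normalized by the authors. Trim Galore 0.6.6, HTSeq 0.13.5, STAR 2.7.10a and mm10 are named in the submitters' processing notes. Their roles, the annotation release and the strand setting were not given in the sources used here, so overlapping and antisense reads may be split or merged. The 5 summary entries that name no gene (12.6% of counts in DN, 9.56% in DP) were left out.

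Libraries were grouped by title. The test was edgeR 4.0.16 in R 4.3.3 (quasi-likelihood, TMM, filterByExpr with minimum count 10, no block). It was also run on simulated data in which few genes changed, so the scaling was not tested where most genes move. Libraries of a group differed by more than sampling noise (chi-square per degree of freedom 1.96 to 3.26). Alternatives were other scalings, filters, DESeq2 1.42.0, limma 3.58.1 (voom), thinning, a 1.5-fold minimum, a block and each library left out. Named genes were the hosts, genes overlapping or starting within 2 kb of them, Myc, up to 4 genes of smallest p per list, all core snoRNP genes and the 3 genes most like each of the 3 hosts of highest mean CPM. Beyond this rule, Snhg18, Cct6a, 2700038G22Rik, A430035B10Rik, Gm29170, Mir155hg, Mki67, 4 plasma cell markers, Upf1, Smg1, Rpap3 and Pih1d1 were named after their values were seen. Members and lists were chosen with earlier results of these data known. Gene models and snoRNA sequences came from GENCODE M21, and promoters came from RefSeq, matched by symbol. M21 is not the release used for the counts. It holds 55141 of the 55401 deposited genes, and its versions of the Snhg5 and Snhg15 entries differ from the deposited ones. Lengths and exon overlaps given here may therefore differ from those used in counting.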

Additional observations from a re-analysis of the deposited data

How the results depend on the processing

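The 9 tested hosts were above 0 under every scaling, filter, tool and left-out library tried, and the number called was 7 to 10. It was 7 with a 1.5-fold minimum, where Snhg5 (adjusted p = 0.786) and Snhg8 (adjusted p = 1) did not pass and 3876 genes did, and 10 with no filter beyond 1 count, without DN replicate 1 and without DN replicate 3, where Snhg3 was also called. Without DN replicate 2 it was 9, with Snhg3 called and Snhg8 not. Where a DN library was left out, Snhg3 entered the test through its DP values. With no filter it was tested on its few DN counts. The calls of Snhg3 therefore do not count as support. Their median log2 fold change of 1.36 became 1.17 with library totals alone and 1.60 with counts thinned to the smallest library, and ran from 1.21 to 1.61 when a library was left out. The lowest and highest values came without DN replicate 3 and without DN replicate 1. Snhg6, scarce in DN, was the middle gene in the main fit and without DN replicate 1, where it read 1.61. Without DN replicate 3 Snhg6 read 1.14 and the middle gene was Gas5, at 1.21. Snhg8 was the only host to lose its call under a scaling or a left-out library, with values given above.

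With library totals alone the list medians moved to 1.17 for other long noncoding hosts, 1.56 and 1.68 for the box C/D and box H/ACA core genes, 1.10 for assembly factors, 0.20 for decay factors, -0.54 for decay targets, 0.16 for other TOP genes and 0.45 for regulators of TOP mRNAs. The median of the 12 listed long noncoding RNAs without snoRNAs turned to -0.15. That of all tested long noncoding genes that host no snoRNA went from -0.76 to -0.96, with 34 higher and 287 lower. Long noncoding hosts by annotation that were higher went from 4 to 9 when snoRNAs touching host exons also counted.

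Libraries with the same number did not deviate together (correlations of 0.056, -0.006 and -0.018), so the numbers gave no sign of pairing; whether they mark mice is not known. DN and DP libraries with different numbers gave correlations of -0.035 to 0.040. With the replicate block the hosts' median was 1.38 with 9 higher, and no host call changed. The block paired libraries by number only, and other pairings were not fitted. Depth limits Snhg3 and Snhg4: 3 counts correspond to 0.236 to 0.315 CPM in DN libraries.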
